A study of Phragmites australis with 7 samples.

Results

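The genes described here are those whose share of counts was highest in an intact bud section of common reed (Phragmites australis) relative to dissociated cells of the same plant, NAint61. A gene was eligible if both kinds of file listed it, if it lay on neither the B chromosome (PaChr24) nor an unplaced scaffold, and if it had at least 1000 counts in the section. Of 42035 shared features 361 were left out for their position, 10138 genes were eligible, and the 200 with the highest ratio of section share to cell share were taken as the section-enriched genes. The genes were thus chosen by their measured counts in the section and in NAint61, and that contrast is given only as a description.

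The study collected shoots of 3 European plants (EU60, EU78 and EU620) and 3 North American invasive plants (NAint61, NAint113 and NAint191), all untreated in a common garden. Buds of each plant were pooled, digested to protoplasts and sequenced as 1 single-cell library per plant. Frozen buds of NAint61 gave 1 section on a spatial chip, which has no replicate. By the batch labels, batch 2 consists of NAint191 and EU620, batch 1 of NAint113 and the other European plants, and batch 3 of the cells of NAint61 alone, whereas its section carries the label batch 1. Platform, aligner and tissue state differ together between the section and the cells and cannot be told apart.

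Plant cells are held in walls of cellulose, pectin and, in some tissues, lignin, so a suspension of single cells requires enzymes that remove the wall, and each released protoplast is sequenced apart from its neighbours. A frozen section keeps the tissue whole and captures RNA where it lies. Many proteins secreted into the wall or onto the surface of a young shoot are small and belong to large families, such as lipid transfer proteins (carriers of lipids to the surface), proline-rich proteins (wall structure), thionins (small defence peptides) and class III peroxidases (lignin polymerisation).

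Unique molecular identifiers (UMIs) totalled 95335255 to 132478792 per single-cell library, in 7154 to 15297 cells. The section held 43513204 counts in 78619 segmented cells, that is, outlines drawn on the stained image, with a median of 371 counts each, and 171 of them had no count. A segmented cell can contain RNA that spread from its neighbours. Of 65150 single cells with at least 500 genes, 451 barcodes occurred in more than 1 library. An Arabidopsis identifier could be attached to 20 of the 200 section-enriched genes, 10% of them, against 9.17% of all eligible genes. The other 180 are given by their gene model number alone, which states the chromosome and the order on it.

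In the section the 200 genes together had a level of 29231 CPM (counts divided by the total of the sample and scaled), 2.92% of all counts. The same genes summed to 185 CPM in EU60, 235 in EU78, 524 in EU620, 263 in NAint191, 157 in NAint61 and 129 in NAint113. The selection fixed the difference from NAint61, and the comparisons with the other 5 libraries use the same section counts, so they are not independent of it. In log2 units, the section exceeded NAint61 by 5.92 to 17.49, with a median of 7.27, while the median of the other eligible genes was 1.17. Against the other libraries, the median difference of the 200 genes was 8.35 in EU60, 8.21 in EU78, 7.05 in EU620, 8.92 in NAint113 and 7.54 in NAint191. At least 4-fold higher levels in the section were found for 199 of the 200 genes against EU60, EU78 and EU620 (all but PaChr5.1246 in EU60 and EU78, at 1.54 and 0.53, and PaChr6.1299 in EU620, at 0.97) and for all 200 against NAint113 and NAint191. For all eligible genes this percentage was 40.2 against EU60, 43.4 against EU78, 31.8 against EU620, 44.2 against NAint113 and 31 against NAint191, and 30.2 against NAint61 itself. These ratios depend on scaling by totals. With trimmed means of M values the median eligible gene moved from 1.21 to 0.16 on the log2 scale. The background against NAint61 fell to 14.4%. All 200 genes stayed at least 4-fold higher, but none started below 5.92, so the selection had left little room for another outcome.

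**Figure D1:**
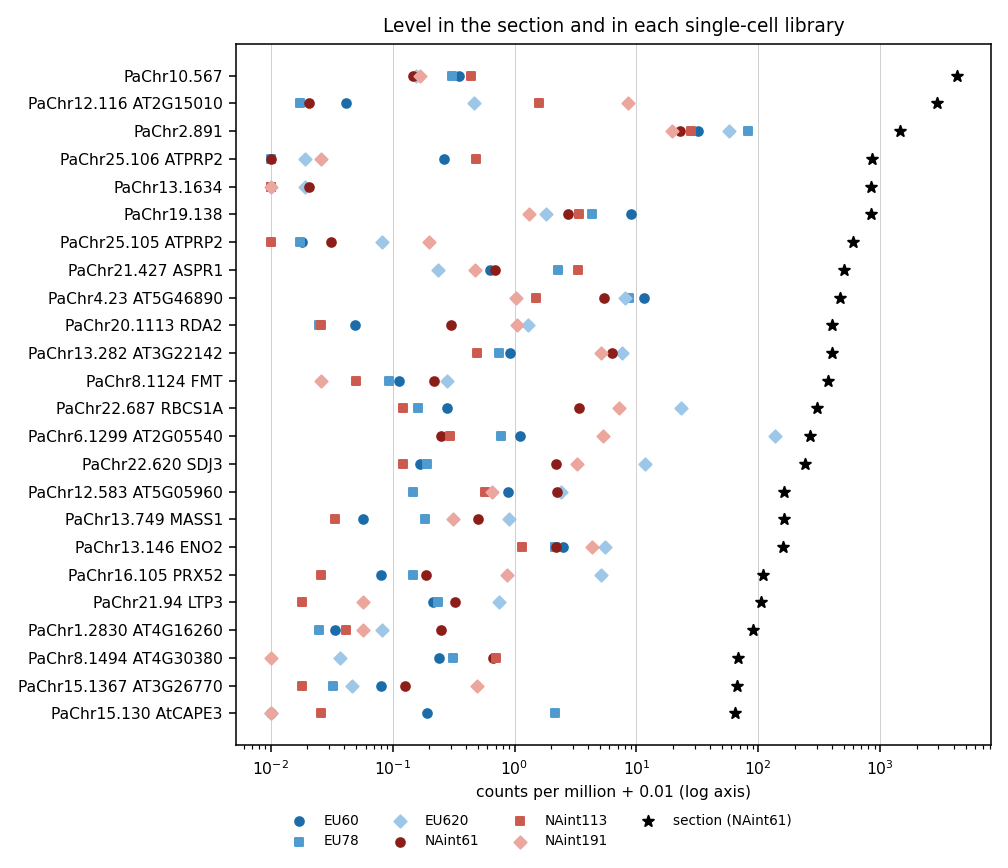
Level in CPM plus 0.01 (log axis) of the 20 section-enriched genes with an Arabidopsis identifier and of the 6 with the most section counts. The star is the section and each other point is 1 single-cell library. In each line the star lies to the right of the 6 libraries, and in PaChr6.1299 the library EU620, with 15003 UMIs, comes closest to it.

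The limit of the list fell within a continuous range. The last genes inside it, PaChr5.2334 and PaChr1.2, had log2 ratios of 5.93 and 5.92, and the first outside, PaChr1.2437 and PaChr7.1812, had 5.92 and 5.91. Section counts of the 200 genes ran from 1001 to 184803 with a median of 2243, against a median of 1945 for all eligible genes. The 10 most counted genes held 46.1% of the counts of the whole list.

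The top of the ranking was taken by PaChr12.116, whose nearest Arabidopsis gene, AT2G15010, belongs to the thionins. It had 126142 counts in the section, 2899 CPM, and was seen in 48.6% of the segmented cells. Of the single-cell libraries, NAint191 held 1079 UMIs of it, NAint113 197, EU620 50, EU60 4, and EU78 and NAint61 1 each. The ratio of shares between the section and NAint61 was 276371, with an exact 95% interval of 49602 to 1.09e+07 that covers counting error only. Intervals and floors in what follows cover counting error only as well.

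Both PaChr25.106 and PaChr25.105, neighbouring copies of ATPRP2, a proline-rich protein of the cell wall in Arabidopsis, were almost absent from the cells. PaChr25.106 had 37295 counts in the section, against 32 UMIs in EU60, 0 in EU78, 1 in EU620, 0 in NAint61, 60 in NAint113 and 2 in NAint191. Its level in the section was at least 27237-fold higher than in NAint61, taking 3 counts in that library as the floor. PaChr25.105 had 25804 section counts, and its UMIs in the same order of libraries were 1, 1, 8, 2, 0 and 24. Other copies with the same identifier were not missing from the cells. PaChr25.104, the next feature to PaChr25.105, had 16780 section counts and 1265 UMIs in NAint61. On chromosome 18, PaChr18.194 had 56392 section counts and 51526 UMIs in NAint61, only 1.26 higher in the section on the log2 scale. Since low counts in NAint61 placed PaChr25.105 and PaChr25.106 on the list, the difference between copies in that library is a description. Over bins of the section, the log levels of PaChr25.106 correlated with those of PaChr25.105 at r = 0.70, with PaChr25.104 at r = 0.66 and with PaChr18.194 at r = 0.66 (3089 bins of 1 section, a description that shares library and depth). Reads of near-identical copies can be assigned differently by the 2 pipelines, and the part of this in the result was not tested.

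Other copies were listed for several further genes. The section-enriched copy of RBCS1A, the small subunit of Rubisco, PaChr22.687, had 13282 section counts and 323 UMIs in NAint61, and the other copy, PaChr6.850, had 22457 and 1608 and was itself 4.93 higher in the section on the log2 scale. PaChr21.94, annotated as the lipid transfer protein LTP3, had 4597 section counts and 30 UMIs in NAint61. Its relative PaChr10.1229 had 114655 section counts and 26638 UMIs in the same library. The patterns of these LTP3 copies within the section were not alike, since PaChr21.94 correlated with PaChr10.1229 over bins at r = -0.15. PaChr16.105, a copy of the peroxidase gene PRX52, had 4704 section counts and 17 UMIs in NAint61, and its 4 other copies differed among themselves. On the log2 scale of section over NAint61, PaChr23.177 was at 3.81, PaChr5.628 at 1.95, PaChr21.101 at 0.06 and PaChr6.636 at -1.87. PaChr13.146, a copy of the enolase gene ENO2, had 6910 section counts and 209 UMIs in NAint61, and PaChr25.145 had 17770 and 11104.

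Several genes without any identifier had the highest counts. PaChr10.567 was the most counted gene of the list, with 184803 counts in the section, 4247 CPM, and was seen in 70.8% of segmented cells. In the 6 libraries it had only 13 to 54 UMIs. PaChr13.1634 had 36512 section counts and 1 UMI each in EU620 and NAint61, with none in the other 4 libraries. The feature numbered just before it, PaChr13.1633, encodes an HMG chromatin protein and had 26564 section counts but 145410 UMIs in NAint61. PaChr2.891 had 63344 section counts and remained well represented in cells, with 4062 UMIs in EU60, 10791 in EU78, 6348 in EU620, 2188 in NAint61, 3505 in NAint113 and 2518 in NAint191. PaChr19.138_evm.TU.PaChr19.139_evm.TU.PaChr19.141, an identifier that joins several gene models, had 36462 section counts and 167 to 1145 UMIs per library.

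A small set was not found in any single cell. PaChr18.10, PaChr10.596, PaChr1.1031, PaChr1.1028, PaChr18.9 and PaChr11.1656 had 0 UMIs in all 6 libraries, and 5984, 5413, 4320, 3584, 1821 and 1048 counts in the section. With a floor of 3 counts in NAint61, the level of PaChr18.10 was at least 4370-fold higher in the section, that of PaChr10.596 at least 3953-fold and that of PaChr1.1031 at least 3155-fold. In NAint61 alone, 17 of the 200 genes had no UMI. PaChr25.18, also among the first 10 of the ranking, had 4133 section counts and 0 UMIs in NAint61, with 0 to 4 in the other libraries.

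The remaining annotated genes can be ordered by the role of their Arabidopsis relatives. Among defence proteins, PaChr15.130, a copy of AtCAPE3, whose product belongs to the pathogenesis-related family of secreted proteins, had 2785 section counts. Its UMIs were 283 in EU78, 23 in EU60, 2 in NAint113 and 0 in EU620, NAint61 and NAint191. PaChr1.2830, related to the glucanase gene AT4G16260, had 3919 section counts and 2 to 23 UMIs per library. PaChr8.1494, related to the natriuretic peptide gene AT4G30380, had 2977 section counts and 0 to 88 UMIs. Among secreted proteins of the 8-cysteine type, PaChr4.23 (AT5G46890) had 20167 section counts and 130 to 1454 UMIs, PaChr12.583 (AT5G05960) had 7108 and 18 to 265, and PaChr13.282 (AT3G22142) had 17409 and 61 to 835.

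The other annotated genes belong to no common list. PaChr20.1113 is annotated as RDA2, a receptor kinase of the cell surface in Arabidopsis, and had 17561 section counts with 2 to 142 UMIs per library. PaChr13.749 is annotated as MASS1, a substrate of mitogen-activated protein kinases in the stomatal lineage of Arabidopsis, and had 7086 section counts with 3 to 99 UMIs. PaChr22.620 is a copy of SDJ3, a DNAJ-domain protein that acts with readers of DNA methylation, and had 10413 section counts with 14 to 1287 UMIs. PaChr8.1124 is annotated as FMT, which acts in the distribution of mitochondria, and had 16248 section counts with 2 to 30 UMIs. PaChr21.427, annotated as the aspartic protease ASPR1, had 21963 section counts with 25 to 419 UMIs.

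Counted over the lists of annotated eligible genes, the section-enriched genes included 4 of 23 thionins and defence proteins, 3 of 14 proline-rich and 8-cysteine proteins, 3 of 77 cell wall and lignin genes, 1 of 59 genes of cuticle and lipid transfer, 1 of 43 photosynthesis genes and 1 of 21 genes of central metabolism. None of 156 ribosomal protein genes, 45 genes of histones and cell division, 16 of RNA-binding proteins and chaperones, 15 of metal and redox proteins and 9 water channels were included. Over all annotated eligible genes the share was 20 of 930, 2.15%. The identifiers come from marker tables that the study drew from these samples, so these shares are not independent evidence of a function.

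Spatial clustering was measured with Moran's I of scaled log counts, taking for each segmented cell its 6 closest neighbours. The index is close to 0 without spatial structure and rises as neighbours become alike. The 200 genes had a median of 0.0899 and a range of 0.0577 to 0.548, and the median of all eligible genes was 0.0760. Above that median lay 151 of the 200 genes, 75.5%. A value over 0.2 was reached by 36 genes, 18% of the list, against 2.35% of all eligible genes. The total count of a segmented cell was itself clustered, with a Moran's I of 0.727. Within the class of lowest section counts, which held 61 section-enriched genes, their median was 0.0874 and that of other genes 0.0722. Among genes of at least 10000 counts it was 0.179 for 22 section-enriched genes and 0.110 for the others, and among genes of 5000 counts up to that limit the medians were 0.0859 and 0.0850, nearly level.

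**Figure D2:**
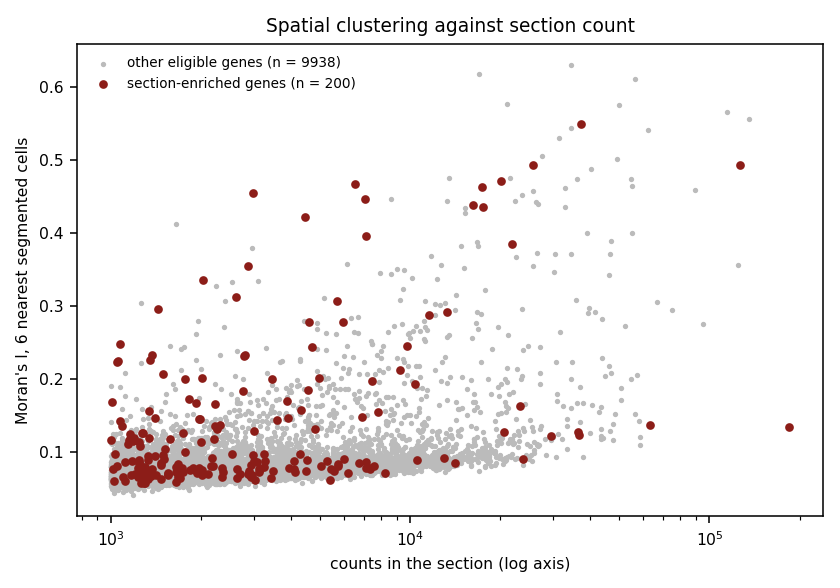
Moran's I with 6 neighbours per segmented cell against the count in the section (log axis), for 200 section-enriched genes and 9938 other eligible genes. Many section-enriched genes lie in the same band as the others at any count, and 36 lie above 0.2, up to 0.548 for PaChr25.106.

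The most clustered genes were PaChr25.106 with 0.548, PaChr25.105 and PaChr12.116 with 0.493 each, PaChr4.23 with 0.470, PaChr13.1525 with 0.466, PaChr13.282 with 0.462, PaChr8.1494 with 0.455, PaChr13.749 with 0.447, PaChr8.1124 with 0.439 and PaChr20.1113 with 0.435. The identifiers come in part from spatial markers of the study, so how many of these carry one is no finding. Abundance alone did not order the values, since PaChr10.567 had the most counts and a Moran's I of 0.135, whereas PaChr8.1494 had 2977 counts.

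To place the genes in the tissue, segmented cells were joined into 3089 square bins of median 24 cells and 9386 counts, and the bins were clustered without the 200 genes into 19 regions. Depth differed between regions, from 80.8 counts per segmented cell in region 14 to 1243 in region 11. The summed marker genes of mesophyll (11 copies of chlorophyll-binding and Rubisco genes) were highest in regions 4 and 11, at 14849 and 12770 CPM, against a median of 345 over the 19 regions. The 5 copies of PDF1, an epidermal marker, were highest in regions 4 and 7, at 8134 and 5173 CPM. Markers of dividing cells were highest in region 8, at 140 CPM. The vascular marker DOF5.6 was close to 0 everywhere, at most 63.4 CPM, and did not serve to place vascular tissue.

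The section-enriched genes did not share a region. Their highest level fell in region 6 for 31 genes, in region 19 for 25 and in region 12 for 24, which is 15.5%, 12.5% and 12% of them, against 7.06%, 5.53% and 5.96% of all eligible genes. A highest region at least 4 times the rest of the section was found for 92 genes, 46% of the list, against 11.3% of all eligible genes. Pairs of section-enriched genes were weakly correlated over bins, with a median r of 0.06, and only 0.226% of pairs exceeded 0.5.

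Both ATPRP2 copies, PaChr22.687 and PaChr20.1113 were highest in regions 4 and 11, which had the highest mesophyll markers and also high epidermal markers, with PDF1 copies at 8134 CPM in region 4 and 3099 in region 11. The part of either cell type in these levels was not tested. PaChr25.106 reached 3038 CPM in region 11 and 2330 in region 4, and no more than 691 in any other region. PaChr22.687 (RBCS1A) reached 1155 CPM in region 4 and 800 in region 11. PaChr20.1113 (RDA2) was at 1507 CPM in region 11 and 1364 in region 4 and correlated over bins at r = 0.72 with the feature next to it, PaChr20.1112, a copy of the chlorophyll-binding protein gene LHB1B2. That neighbour had 23571 section counts and 1230 UMIs in NAint61, against 28 UMIs of PaChr20.1113.

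Another pattern lay in region 6, whose leading genes, PaChr21.672 and PaChr9.467, carry no identifier. PaChr13.749 (MASS1) reached 3595 CPM there, 41.2 times the rest of the section, PaChr12.583 was 43.7 times the rest and PaChr13.748, the neighbour of MASS1, was 58.8 times the rest. PaChr11.1656, absent from all libraries, was 115 times the rest. Region 6 had 197 counts per segmented cell, fewer than most regions, and 163 CPM of PDF1 copies, the lowest value of the 19 regions. PaChr4.23 was also high in region 6, at 2760 CPM, but higher in regions 14, 3 and 10, at 9565, 7473 and 4230 CPM, where segmented cells held 80.8, 81.1 and 264 counts. The part of depth in these levels was not tested.

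A further pattern belonged to region 19, the smallest, with 757 segmented cells, led by PaChr14.338 and a copy of MLP34. PaChr8.1494 reached 2354 CPM there, 61.4 times the rest, and PaChr15.1367, related to the dehydrogenase gene AT3G26770, was 58.4 times the rest. PaChr15.130 (AtCAPE3) was 42.6 times the rest in region 19. PaChr21.427 (ASPR1) was at 4608 CPM in region 19 and 4354 in region 13, and PaChr8.1124 (FMT) was highest in region 13, at 3996 CPM. Region 13 and region 17 were led by DIR15, a dirigent protein of lignan and lignin assembly, and PaChr13.282 reached 3085 CPM in region 17. PaChr6.1299, a glycine-rich protein gene singled out after its values were seen, was highest in region 5, at 1940 CPM.

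**Figure D3:**
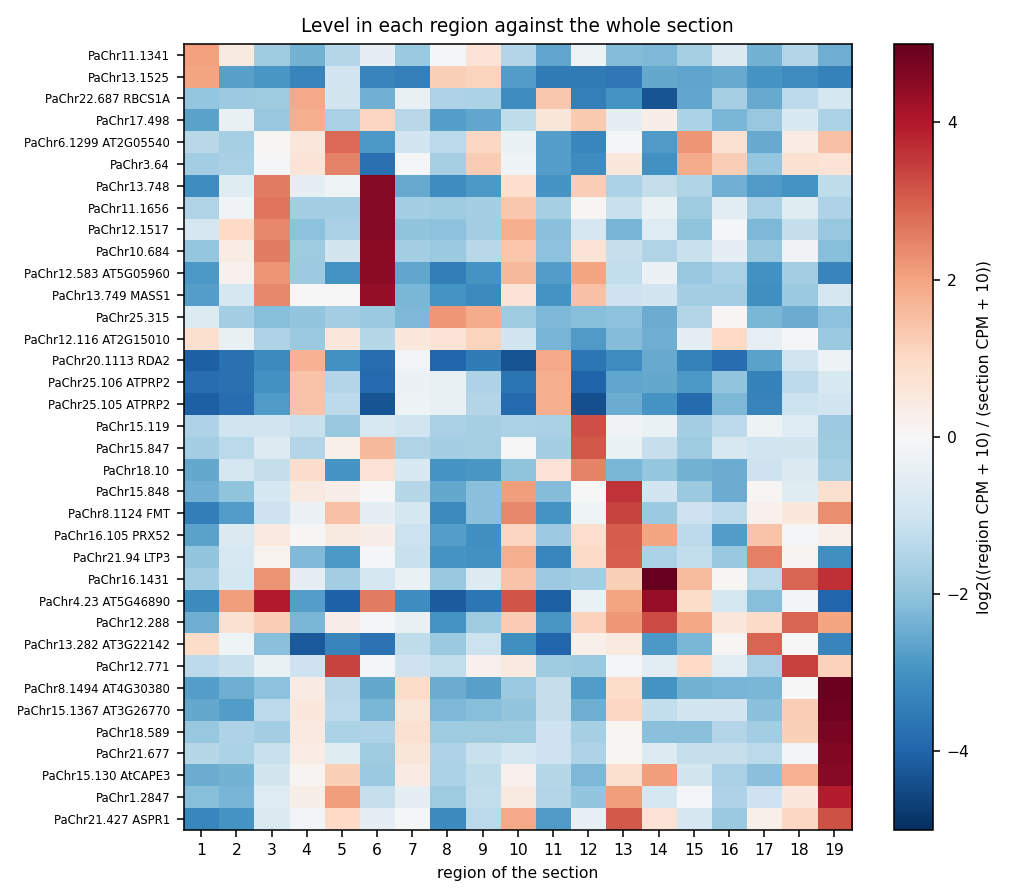
Log2 of the level in each of 19 regions against the level in the whole section, with 10 CPM added to both, for the 36 section-enriched genes with a Moran's I over 0.2. Rows are ordered by the region of highest level, and blocks of high values are seen in region 6, in regions 4 and 11, and in region 19.

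PaChr12.116 was widespread by contrast. Its highest level, 6339 CPM in region 9, was 2.35 times the rest, and it ranged down to 403 CPM in region 12. PaChr10.567 was the most even of the abundant genes, between 3013 CPM in region 11 and 7338 in region 14. Cutting a tree of the correlations over bins gave spatial groups of 108, 67, 17, 6, 1 and 1 genes. The third group held 15 genes that were highest in region 6 and had a median Moran's I of 0.158. Its most counted members were PaChr4.23 and PaChr1.1034. The fourth group of 6 genes, led by PaChr10.567 and PaChr12.288, had its highest level in region 14 for 5 of them. The single genes were PaChr3.971 and PaChr3.2587, with Moran's I of 0.0813 and 0.0604.

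**Figure D4:**
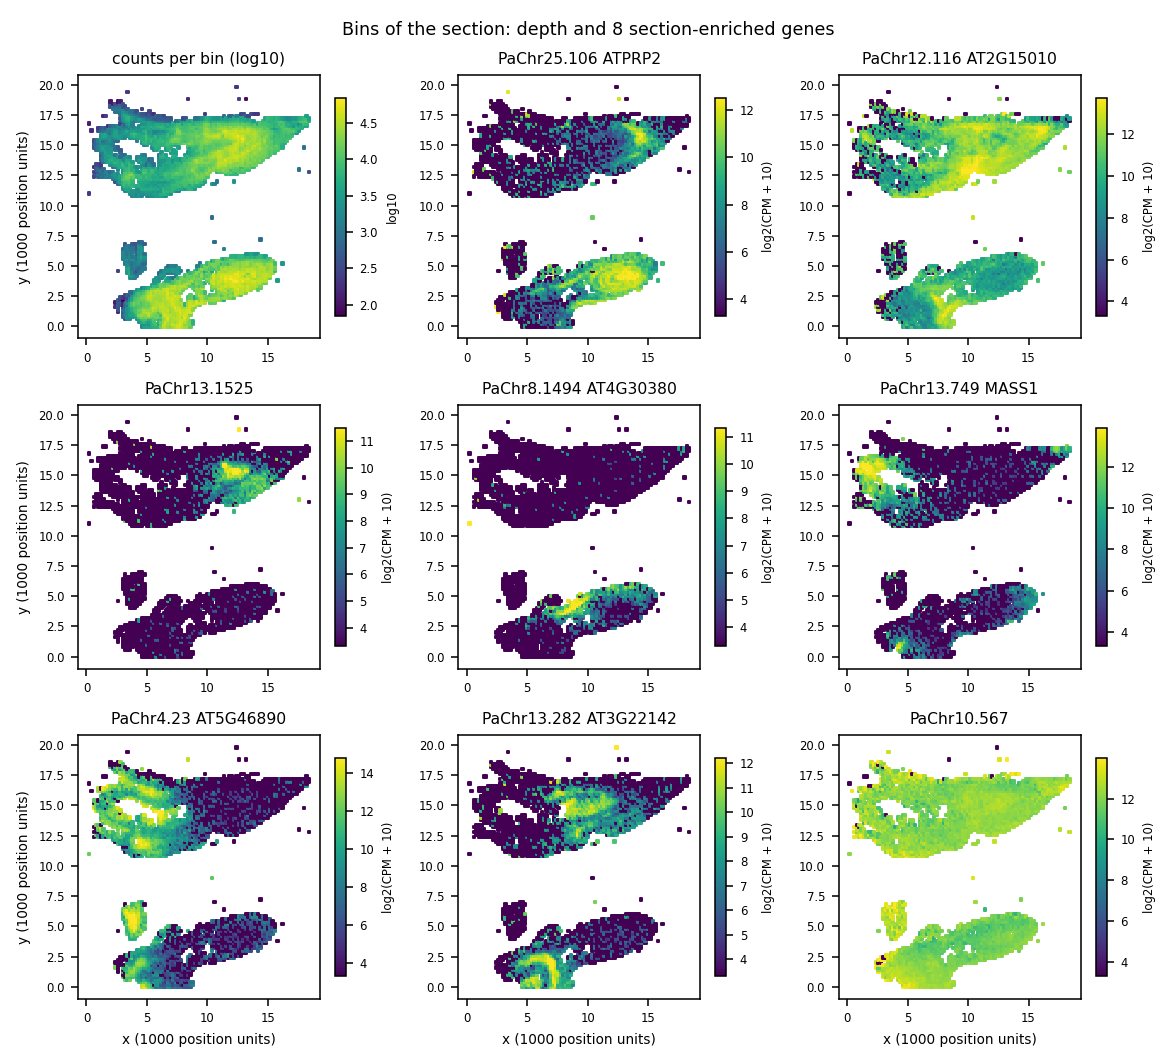
Bins of the section at their positions (in position units, whose physical size is not given in the sources used here), coloured by log10 of the total count (first panel) and by log2(CPM + 10) of 8 section-enriched genes, with colour capped at the 99.5th percentile of bins. PaChr8.1494 is high along 1 flank of the lower piece, PaChr13.1525 in the inner part of the upper piece, PaChr4.23 around the cavity of the upper piece, and PaChr10.567 over the whole tissue.

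The section held 2 large pieces of tissue and a small one, and since more than 1 bud was sectioned, the pieces can differ in bud and in plane of cut. The larger had 45679 segmented cells and 430 counts per cell, and the second had 25736 and 871. The 200 genes summed to 29491 CPM in the first and 28727 CPM in the second, so the whole list was at similar levels in both, but single genes were not. A level at least 2-fold higher in the first piece was found for 37 genes, 18.5%, and in the second for 54, 27%, against 16.2% and 13.9% of all eligible genes. PaChr13.1525 was at 318 CPM in the first piece and 5.58 in the second. PaChr20.1113 (RDA2) was at 20.2 and 741 CPM, and PaChr8.1494 at 4.84 and 124 CPM. PaChr18.10, absent from all cells, was at 28.9 and 236 CPM.

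Position on the chromosomes was examined because neighbouring features can share reads. A direct neighbour with at least 1000 UMIs in NAint61 was found for 84 of the 200 genes, 42%, against 50.5% of eligible genes, and the sharing of reads was not tested. A neighbour that was itself section-enriched was found for 14 genes, in 7 pairs such as PaChr13.748 and PaChr13.749 (r = 0.66 over bins), PaChr25.105 and PaChr25.106, PaChr8.1123 and PaChr8.1124 (r = 0.49) and PaChr18.9 and PaChr18.10 (r = 0.50). This is 7% of the list, against 1.08% of eligible genes. Each section-enriched gene was set against its neighbours with at least 1000 section counts, which gave 109 comparisons. Where both genes were section-enriched, the pair was counted once from each side. The median r over bins was 0.13, and 10 comparisons exceeded 0.5. By chromosome the share of eligible genes that were section-enriched ran from 0.439% on chromosome 23 to 6.28% on chromosome 21, with 13 of 207.

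The single cells were clustered without the 200 genes. Of 20 clusters with at least 50 cells, 16 were named after the class with the most markers of the study's table among their 50 leading genes. The evidence was thin for bundle sheath cell-like cells, with 1 marker among the first 10 genes, and for the larger part of 1 class, since cluster 6 of the Epidermal cell1-like cells had 0 and was led by ATLTP1. The names that follow are those of that table. The 200 genes had a median of 242 UMIs each in the clustered cells, and the 176 with at least 20 UMIs were assigned to the class of highest mean CPM over the 6 libraries. Free RNA in the droplets was not measured, so these low levels cannot be told apart from it.

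The summed level of the 200 genes was 438 ± 429 CPM (SD, n = 6 libraries) in Epidermal cell2-like cells, 373 ± 161 in Xylem-like cells, 266 ± 161 in Mesophyll-like cells and 240 ± 109 in Protoderm2-like cells. It was lowest in Vascular tissue-like cells, at 147 ± 66.5. These spreads overlap between most classes, and none came near the 29231 CPM of the section. The first value rests on 1 library and 1 gene. Epidermal cell2-like cells of EU620 had 1296 CPM, of which PaChr6.1299 made up 751, and those of the other libraries had 160 to 405. Without PaChr6.1299 the class was at 306 ± 140 CPM and without EU620 at 266 ± 92.8, both below Xylem-like cells, at 371 ± 157 and 326 ± 125. Both alternatives were chosen after seeing the data. Xylem-like cells were shallow, with a median of 1475 UMIs, 0.182 times that of their libraries.

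**Figure D5:**
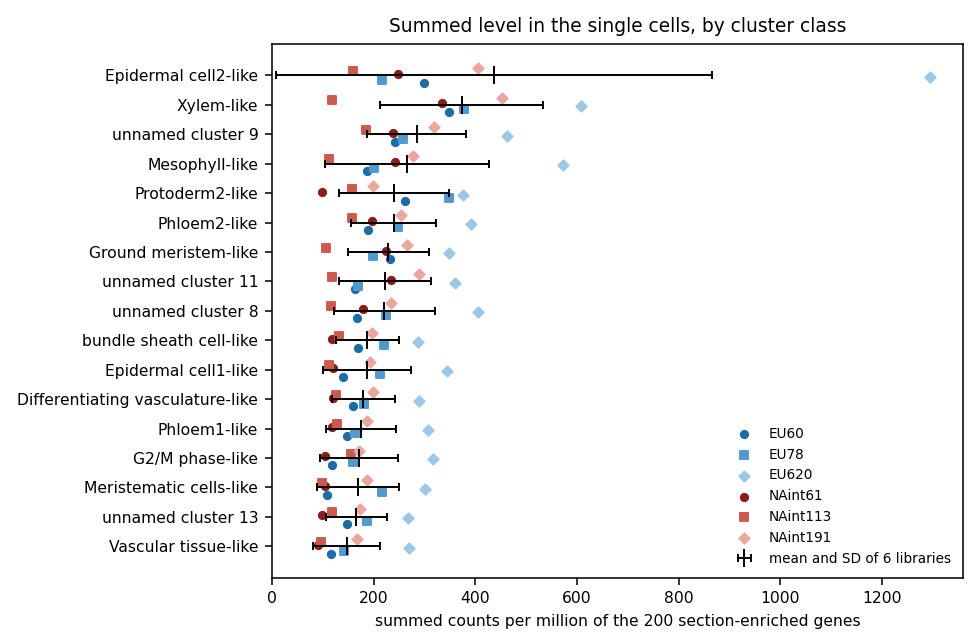
Summed level of the 200 section-enriched genes in CPM for each class of single cells. Coloured points are the 6 libraries and black bars give the mean and SD. Library EU620 is the highest in every class and reaches 1296 CPM in Epidermal cell2-like cells.

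By class of highest level, 30 genes fell to Xylem-like cells, 24 to Epidermal cell2-like cells, 16 to Phloem2-like, 14 to Mesophyll-like and 11 to Ground meristem-like cells, while 24 fell to unnamed cluster 9 and 22 to unnamed cluster 11, which were also shallow. The 5 named classes held 17%, 13.6%, 9.09%, 7.95% and 6.25% of the genes assigned, against 17.6%, 5.71%, 5.98%, 6.12% and 2.40% of all eligible genes. The unnamed clusters 9 and 11 held 13.6% and 12.5%, at or below the 13.9% and 17.3% of all eligible genes. Few assignments were stable between libraries. The class of highest level was the same in 5 or 6 libraries for 28 genes, 15.9%, against 34.6% of eligible genes. The 200 genes were chosen for low counts in NAint61 cells and had medians of 17 (NAint113) to 45.5 (EU620) UMIs per library. Eligible genes were not matched for UMIs, so the part of counting error in this gap was not tested.

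A few genes had most of their UMIs in 1 class. In Mesophyll-like cells PaChr22.687 (RBCS1A) was at 110 CPM in EU620, 28.9 in NAint191, 28.1 in NAint61, 2.78 in EU60, 1.82 in NAint113 and 0.782 in EU78, the highest class in all 6 libraries and 67% of its UMIs. Epidermal cell2-like cells held 79.8% of the UMIs of PaChr6.1299, at 751 CPM in EU620, 24.0 in NAint191 and 3.24 to 4.57 in the other 4. The same class held 63.8% of the few UMIs of PaChr25.106 and 80.6% of those of PaChr25.105. It also held 71.9% of the UMIs of PaChr13.749 (MASS1), although the section had its highest level in region 6, where PDF1 was lowest. PaChr13.282 was less confined, since Ground meristem-like cells held 49.6% of its UMIs, at 3.20 to 35.3 CPM per library. They were not its highest class in every library. In EU78 it was at 8.37 CPM in Xylem-like cells and at 3.34 in Ground meristem-like cells. For PaChr16.105 (PRX52) the highest class was Mesophyll-like in 1 library only.

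Between libraries, more of the genes separated the batch labels than the populations. Among 170 section-enriched genes with at least 10 UMIs in 1 of the 5 libraries that the selection did not use, both batch 2 libraries lay above the 3 of batch 1 for 84, 49.4%, where the background was 28.4%, and below them for 26, 15.3%, with a background of 28%. PaChr22.687 had 2569 UMIs in EU620 and 924 in NAint191, against 14 to 34 in EU60, EU78 and NAint113. PaChr22.620 (SDJ3) had 1287 and 418, against 14 to 24. PaChr5.2334 had 422 and 258, against 3 to 12. NAint61, the only library of batch 3, had 323, 209 and 91 UMIs of these genes.

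The population contrast was tested with edgeR's quasi-likelihood test over all genes of the 5 libraries (3 European, 2 invasive) with mean reads per cell as covariate. No section-enriched gene passed an adjusted p of 0.05 and a log2 change of 1, and no other gene did (background 0%). Unadjusted p-values below 0.05 were found for 35 of the 170 genes, 20.6%, against 12.3% of all genes tested. DESeq2 called 7 as higher in invasive libraries and 4 as higher in European ones, where its backgrounds were 2.75% and 1.75%. Libraries did not overlap between populations for 6 genes with invasive above (background 4.56%) and 18 with European above (background 8.68%). The changes given next were fitted beside the covariate and are not simple ratios of the UMIs listed. PaChr12.116 had the lowest p, with a log2 change of 7.99 ± 0.83 (SE), edgeR adjusted p = 0.277, and DESeq2 adjusted p = 2.2e-13. Its 50 UMIs in EU620 and 4 and 1 in EU60 and EU78 lay below the 197 and 1079 of NAint113 and NAint191. NAint61, an invasive library left out of the fit because its counts chose the genes, had 1 UMI. That lay below NAint113 and NAint191 and within the range of the European libraries. The part of the selection in this value was not tested. PaChr4.23 was lower in invasive libraries by -2.97 ± 0.50, edgeR adjusted p = 0.349 and DESeq2 adjusted p = 1.37e-05. It had 1454, 1160 and 893 UMIs in the European libraries and 187 and 130 in NAint113 and NAint191, without overlap. NAint61, also left out of this fit, had 512, above NAint113 and NAint191 and below the European libraries. The part of the selection in this value was not tested either. For PaChr22.687 the fitted change of 3.61 ± 1.04 towards invasive libraries (edgeR adjusted p = 0.359) was fitted beside the covariate, and the library with the most UMIs was European (EU620). Each library is 1 plant with pooled buds, so the spread is between plants and batches.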

How the data were processed

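The authors deposited raw UMI counts per gene and cell for 6 single-cell libraries, made with Cell Ranger 8.0, and raw counts per gene and segmented cell for 1 section, made with STAR, BSTMatrix and Cellpose. Neither was normalized. The section-enriched genes and the gene lists were chosen with earlier results of these data known. Sums over all cells gave levels in CPM and ratios with 0.5 added to each count. Bins and cells were clustered with Leiden (scanpy 1.11.5, leidenalg 0.10.2) at a resolution of 0.8, bins on 2000 genes and 20 components, and cells with at least 500 genes on 3000 genes and 35 components after alignment of libraries. Scrublet called at most 1 cell per library, so its threshold did not work, all cells were kept, and removing the top 8% of scores was an alternative. A cluster was named when at least 3 markers of 1 class stood among its 50 leading genes and no other class had more among the first 10. A cluster far shallower than its libraries also needed a marker of that class among the first 10. Markers were genes listed for 1 class only in the study's table. Populations were compared with edgeR 4.0.16 on summed counts (TMM, genes with at least 10 counts in 1 library, Benjamini-Hochberg), and DESeq2 1.42.0 was the alternative. The fit was tested on simulated data with a fixed dispersion and no effect of batch or of mean reads per cell. That test does not show how the fit behaves where libraries differ by batch, as they do here. Named genes were the 10 of highest rank, section count and Moran's I, 2 of each spatial group, all with a symbol, and those at the limit of the list, and others named were chosen after their values were seen. Sequences and coordinates were not used here. Depth ranged from 95335255 to 132478792 UMIs per library, and the section had 43513204 counts.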

Additional observations from a re-analysis of the deposited data

How the results depend on the processing

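Of the results tested under alternatives, the population contrast depended on the tool: edgeR called 0 section-enriched genes, and DESeq2 called 11. The count was 0 with all 6 libraries, without the covariate, with batch as a term, without the filter and with only cells of at least 500 genes, and it was 0 to 0 when each of the 5 libraries was left out in turn. Replicate numbers did not pair the libraries. Deviations of same-numbered libraries correlated at 0.06, 0.58 and 0.69, EU60 correlated best with NAint113, and the correlations followed the batch labels. A replicate block in place of the covariate called 0 genes. The percentage above the median Moran's I was 73.5 to 76 under the alternatives. The largest spatial group had 71 genes with 8 groups in place of 6. At resolution 1.2, 88 of 176 genes kept the name of their class of highest level, and 162 did without the top Scrublet scores. Unnamed clusters are numbered anew at each resolution. The 24 and 22 genes of unnamed clusters 9 and 11 could therefore not match, and the 88 is not a measure of stability for them. In single cells 27 genes had fewer than 10 UMIs in every library, so their levels there are imprecise.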
